A study of Mus musculus with 16 samples.

Results

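The 9 genes described here code for receptors through which astrocytes sense noradrenaline, adenosine, extracellular nucleotides and endothelin: Adra1a, Adra1b, Adra2a, Adrb1, Adora1, Adora2b, P2ry1, P2rx7 and Ednrb. They were taken by symbol from a table of 39171 features, and all 9 were present and above 0 in all 16 libraries. The libraries came from 4 C57BL/6 mice at postnatal day 15 that were heterozygous for an mCherry reporter of Il33 and positive for an Aldh1l1-GFP reporter. From each mouse, cells were sorted by flow cytometry into 4 groups: IL-33 reporter-positive and reporter-negative astrocytes of the spinal cord, and the same 2 gates of the thalamus. Each group therefore held 4 libraries from separate animals, and all groups shared the same genotype, age and strain. IL-33, the protein product of Il33, is a cytokine of the IL-1 family. All mice carried a reporter allele, so no group was free of it, and the sources used here do not say how GFP entered the gate.

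As background, noradrenaline acts on alpha-1 receptors that couple to Gq and release calcium from internal stores, on alpha-2 receptors that couple to Gi and lower cyclic AMP, and on beta receptors that couple to Gs and raise it. Adenosine acts in the same opposed way through the Gi-coupled Adora1 and the Gs-coupled Adora2b. ADP acts on the Gq-coupled P2ry1, ATP opens the cation channel P2rx7, and endothelins act on Ednrb, a G protein-coupled receptor abundant in astrocytes.

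Expression is given as FPKM, a measure of fragments per kilobase of transcript, as the authors deposited it, so levels can be compared between genes. How the libraries were scaled to each other is not stated. A gene is said to be called, or to have risen or fallen, when its Benjamini-Hochberg adjusted p from limma was under 0.05 over the 16340 features tested. All fold changes, and all amounts by which a gene is said to be higher or to rise, are log2 differences on the log2(FPKM + 1) scale, with their SE after ±. This scale understates changes of weakly expressed genes.

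The 10 astrocyte markers examined summed to 13036 to 14300.5 FPKM in positive spinal cord libraries and 8810.5 to 10503 FPKM in negative ones, and to 5756 to 7129 FPKM in positive thalamus libraries and 5491 to 7516 FPKM in negative ones. The negative libraries also held transcripts of other cells. The 10 oligodendrocyte markers summed to 157 to 169 against 3365 to 3562 FPKM in the spinal cord and to 77.3 to 114 against 447 to 950.0 FPKM in the thalamus, positive against negative. The 9 ependymal markers summed to 3.39 to 6.87 against 122 to 172 FPKM and to 6.85 to 8.30 against 388 to 698 FPKM in the same order. All 10 oligodendrocyte and all 9 ependymal markers were called lower in positive libraries of both regions. Of the astrocyte markers, 4 were called higher and 1 lower in the positive spinal cord libraries, and 2 higher and 2 lower in those of the thalamus. The 8 mural, 8 endothelial and 9 neuronal markers were also lower in sum in positive libraries, with no overlap in either region, while the 12 microglial markers summed to 20.2 to 47.6 FPKM over all groups. In positive spinal cord libraries 5 of 8 oligodendrocyte precursor, 5 endothelial, 3 mural, 1 neuronal and 1 microglial marker were called lower, and in those of the thalamus 5, 2, 4, 3 and 1 in the same order, with 0 higher in any of these lists. Of all markers, the microglial C1qa alone was listed at 0 in every library of a group, the negative spinal cord libraries. In such bulk libraries, fewer cells of a type and less RNA per cell cannot be told apart. The part of these other cells in the receptor differences was not tested. The rescaled values given below divide all genes of a library by 1 factor, so they cannot tell which cells a transcript came from. Transcripts of the mitochondrial genome made up 43.7% to 49.2% of summed FPKM in positive and 46.7% to 71.8% in negative spinal cord libraries, and 51.3% to 56.7% in positive and 56.7% to 73.9% in negative thalamus libraries. Both negative libraries of mouse 1 stood apart, with 71.8% in the spinal cord and 73.9% in the thalamus, against 46.7% to 62.6% in the other 6 negative libraries. Leaving out either of them alone changed no call of the 9 genes, and calls lost without mouse 1 altogether are given with the genes.

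**Figure D1:**
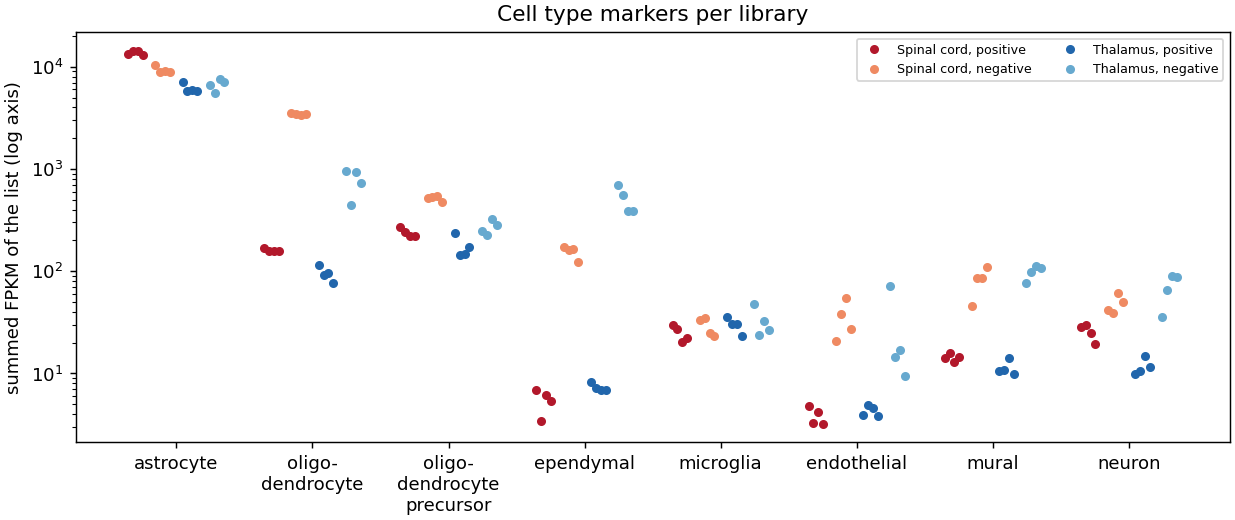
Summed FPKM of each cell type's marker list (log axis) in the 16 libraries, 1 point per library, with spinal cord positive, spinal cord negative, thalamus positive and thalamus negative libraries in that order. Oligodendrocyte and ependymal sums lie far lower in the positive libraries of both regions, while microglial sums overlap between all groups.

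In the spinal cord, 7 of the 9 receptor genes were called higher in positive than in negative astrocytes and 0 were called lower. Among all features tested, 9.04% were called higher and 10.5% lower, or 19.6% in either direction. For 8 of the 9 genes every positive library lay above every negative one, against 13.8% of all features. The median log2 fold change of the 9 genes was 1.32, beside 0.087 for all features. Adora2b, Adra2a, P2ry1 and Adra1a were among those that rose, so the genes higher in positive cells span receptors coupled to Gs, Gi and Gq. In the thalamus, 4 of the 9 genes, Adrb1, Adora2b, Adra2a and Adra1a, were called higher in positive astrocytes, and 1, Adora1, was called lower. Of all features, 11.6% were called higher and 13.6% lower there, or 25.2% in either direction. For 4 genes every positive thalamus library lay above every negative one, against 11.6% of all features. The median of the 9 genes was 0.57, beside 0.064 for all features.

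**Figure D2:**
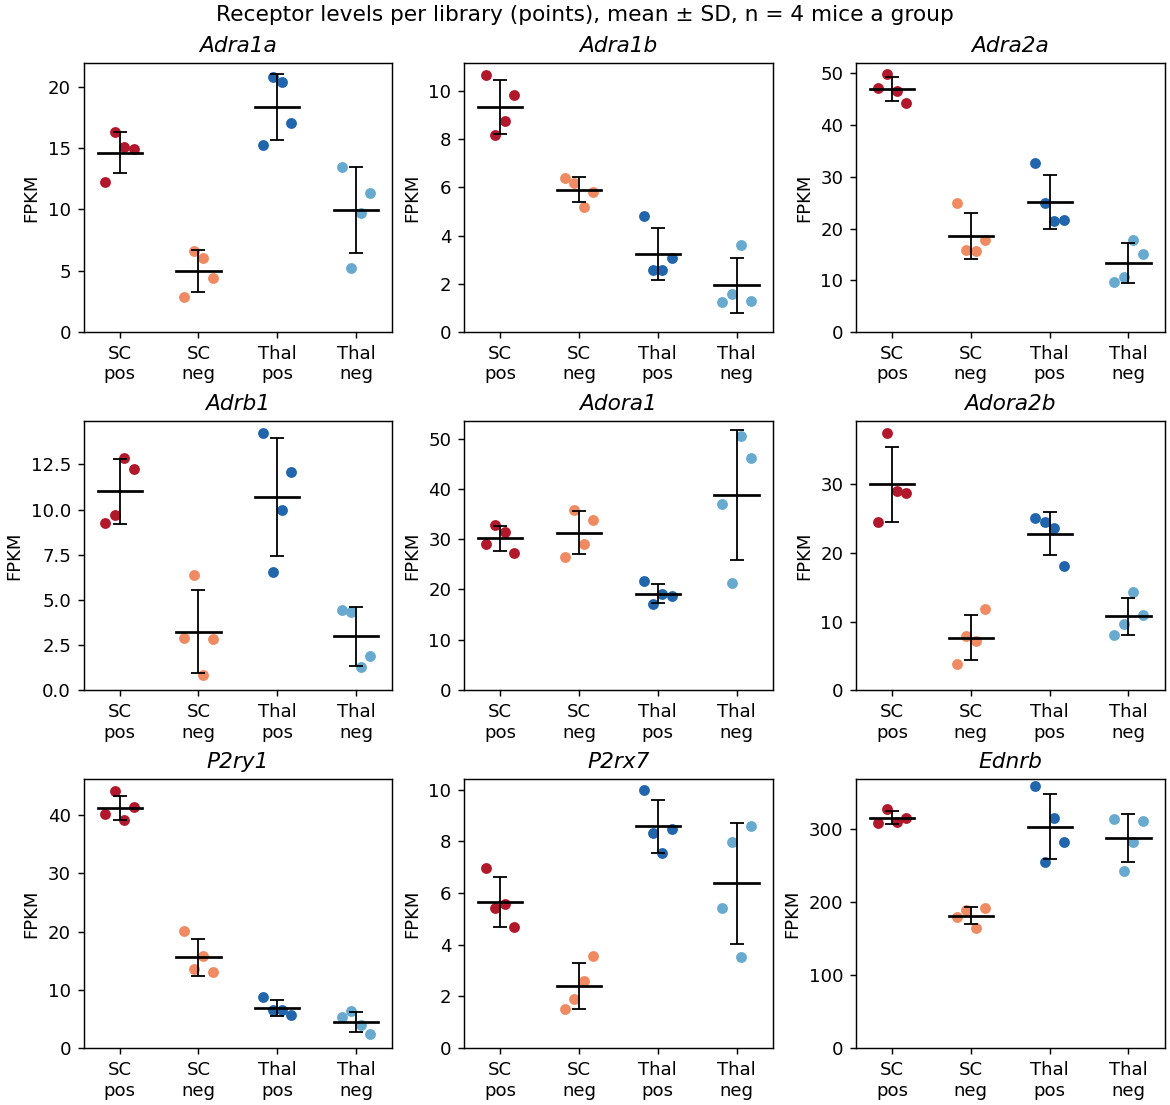
FPKM of the 9 receptor genes in each library (points), with group means and SD (bars), n = 4 mice per group of spinal cord (SC) or thalamus (Thal). Groups run from spinal cord positive to spinal cord negative, thalamus positive and thalamus negative, and the means of 8 genes are higher in the positive group of each region, with Adora1 the exception, though not every difference was called.

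Promoter sequences are shown for Adora2b and Adrb1, the genes whose positive libraries stood above the negative ones of both regions, and for P2ry1, which differed most between regions. They are the 250 bases before the RefSeq start on GRCm38.p6, all on the plus strand: chr11:62248734-62248983 for Adora2b, chr19:56721867-56722116 for Adrb1 and chr3:61002535-61002784 for P2ry1. RefSeq promoters matched 8 of the 9 genes, and Adra1a had none. Capitals mark matches on either strand to the GC box GGGCGG, the cyclic AMP response half-site TGACG, the NFI half-site TTGGC and the SOX site CATTGT, and no matches of different motifs shared bases.
Adora2b: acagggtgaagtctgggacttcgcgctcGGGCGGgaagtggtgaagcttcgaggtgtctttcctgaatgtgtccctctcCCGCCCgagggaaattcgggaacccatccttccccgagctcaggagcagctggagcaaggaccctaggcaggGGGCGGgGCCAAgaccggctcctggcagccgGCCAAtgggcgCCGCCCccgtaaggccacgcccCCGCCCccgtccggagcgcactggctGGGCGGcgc
Adrb1: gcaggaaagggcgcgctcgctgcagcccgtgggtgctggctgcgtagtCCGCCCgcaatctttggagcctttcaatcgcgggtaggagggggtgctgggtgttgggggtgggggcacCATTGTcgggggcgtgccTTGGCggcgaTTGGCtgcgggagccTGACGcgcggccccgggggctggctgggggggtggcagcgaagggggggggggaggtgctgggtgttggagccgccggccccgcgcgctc
P2ry1: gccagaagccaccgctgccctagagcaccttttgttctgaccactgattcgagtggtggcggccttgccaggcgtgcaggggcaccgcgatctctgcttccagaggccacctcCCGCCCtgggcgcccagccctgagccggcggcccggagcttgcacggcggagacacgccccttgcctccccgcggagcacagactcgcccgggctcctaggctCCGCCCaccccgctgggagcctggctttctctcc
The Adora2b promoter held 6 GC boxes and 2 NFI half-sites, the Adrb1 promoter held all 4 motifs, with 2 NFI half-sites, and the P2ry1 promoter held 2 GC boxes. Of 32851 promoters of the same length, 32.7% held a GC box, 17.8% a cyclic AMP response half-site, 41.5% an NFI half-site and 10.7% a SOX site. A match says only that these letters are present.

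The alpha-1 receptor gene Adra1a lies at chr14:66635251-66771168 on the plus strand of GRCm38. In mice 1 to 4 it had 12.3, 16.3, 15.1 and 14.9 FPKM in positive spinal cord libraries and 2.87, 6.59, 6.01 and 4.43 FPKM in negative ones, and 15.2, 20.8, 20.4 and 17.0 FPKM in positive thalamus libraries and 13.5, 5.25, 9.73 and 11.4 FPKM in negative ones. Positive and negative groups did not overlap in either region. In positive against negative spinal cord libraries the log2 fold change came to 1.43 ± 0.26 (SE), with a limma adjusted p of 0.00123, and in the thalamus it came to 0.88 ± 0.26, with an adjusted p of 0.0230. The thalamus call was lost in 7 of 23 alternatives, whose adjusted p ran from 0.00462 to 0.132 over all 23. It was lost when mouse 2 (0.123), mouse 3 (0.132) or mouse 4 (0.0832) was left out altogether. The call was also lost without positive mouse 2 (0.0612), positive mouse 3 (0.0636) or negative mouse 2 (0.0556), and when only the thalamus libraries were fitted (0.0564). Negative spinal cord astrocytes had the lowest mean of the 4 groups, 4.98 ± 1.67 FPKM, and positive thalamus astrocytes the highest, 18.3 ± 2.68 FPKM (SD, n = 4), but each group overlapped its neighbour in that order.

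The other alpha-1 receptor gene, Adra1b at chr11:43774606-43901210 on the minus strand, averaged 9.35 ± 1.12 FPKM in positive spinal cord astrocytes and 5.90 ± 0.518 FPKM in negative ones, and 3.25 ± 1.07 FPKM in positive thalamus astrocytes and 1.93 ± 1.12 FPKM in negative ones (SD, n = 4 each). Its positive and negative libraries were not called different in either region, with log2 fold changes of 0.58 ± 0.23 in the spinal cord (adjusted p = 0.0972) and 0.57 ± 0.23 in the thalamus (adjusted p = 0.0867), both by limma. The unadjusted 95% intervals of these differences ran from 0.12 to 1.04 and from 0.11 to 1.03. Positive spinal cord libraries nevertheless all lay above the negative ones, and with the spinal cord libraries fitted alone the adjusted p was 0.0282, the lowest of a range that ended at 0.523. A thalamus library, negative mouse 3 at 3.60 FPKM, stood above the 1.26 to 1.60 FPKM of the other 3 in its group, and without it the thalamus difference was 0.81 with an adjusted p of 0.00889, within a range of 0.00889 to 0.401 over the alternatives.

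The alpha-2 receptor gene Adra2a (chr19:54044151-54048982, plus strand), whose product lowers cyclic AMP through Gi, was the most abundant of the 4 adrenergic receptor genes in every group. It had 47.1, 50.0, 46.7 and 44.3 FPKM in the positive spinal cord libraries of mice 1 to 4 and 25.0, 15.9, 15.6 and 17.7 FPKM in their negative ones. In the thalamus it had 32.6, 24.9, 21.4 and 21.7 FPKM in positive and 9.76, 10.6, 17.8 and 15.1 FPKM in negative libraries. No positive library overlapped the negative ones of its region, and positive spinal cord libraries stood above all other groups. The gene rose by 1.32 ± 0.21 in the spinal cord (limma adjusted p = 0.000379) and by 0.89 ± 0.21 in the thalamus (adjusted p = 0.00611). Leaving out mouse 2 ended the thalamus call, with an adjusted p of 0.0550, the highest of a range that began at 8.31e-05.

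Adrb1, the beta receptor gene at chr19:56722199-56733113 on the plus strand, had 9.26, 9.71, 12.8 and 12.2 FPKM in positive spinal cord libraries and 2.91, 6.36, 0.816 and 2.85 FPKM in negative ones. In thalamus libraries it had 14.2, 6.52, 9.97 and 12.1 FPKM in positive and 4.41, 4.34, 1.27 and 1.91 FPKM in negative ones. All 8 positive libraries lay above all 8 negative ones, and the 2 regions overlapped within each gate. The gene rose by 1.66 ± 0.39 in the spinal cord (limma adjusted p = 0.00763) and by 1.61 ± 0.39 in the thalamus (adjusted p = 0.00788). These calls were lost when mouse 3 (0.0563) or mouse 4 (0.0642) was left out in the spinal cord, where adjusted p ran from 0.00201 to 0.0642, and without mouse 4 in the thalamus (0.0922), where it ran from 0.00498 to 0.0922. The spinal cord call was also lost with astrocyte marker scaling and mouse as a block together (0.0557).

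The 2 adenosine receptor genes behaved differently. Adora2b, at chr11:62248984-62266453 on the plus strand, codes for the Gs-coupled receptor and had 24.6, 37.5, 29.1 and 28.8 FPKM in positive spinal cord libraries and 3.74, 7.83, 7.18 and 11.9 FPKM in negative ones. Its thalamus values were 25.1, 24.5, 23.6 and 18.1 FPKM in positive and 8.07, 9.57, 14.3 and 11.0 FPKM in negative libraries. Every positive library stood above every negative one of either region. The gene rose by 1.91 ± 0.26 in the spinal cord, a fold of 3.76 on this scale (limma adjusted p = 0.000121), the largest rise of the 9 genes there. In the thalamus it rose by 1.04 ± 0.26 (adjusted p = 0.00990). That call was lost when mouse 2 was left out (0.0692), the highest of a range from 0.00129.

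Adora1, the Gi-coupled adenosine receptor gene at chr1:134199223-134235431 on the minus strand, had 29.1, 32.8, 31.5 and 27.3 FPKM in positive spinal cord libraries and 26.5, 35.8, 29.1 and 33.8 FPKM in negative ones. Its thalamus values were 21.7, 17.1, 19.1 and 18.7 FPKM in positive and 36.99, 21.3, 50.6 and 46.2 FPKM in negative libraries. The positive spinal cord libraries lay within the range of the negative ones, and the log2 fold change there was -0.047 ± 0.22, with a 95% interval from -0.47 to 0.38 (limma adjusted p = 0.907). In the thalamus the gene fell, with a log2 fold change of -0.91 ± 0.22 (adjusted p = 0.00690), and it was lower in positive astrocytes of 4 of 4 mice although the groups overlapped. That call was lost without mouse 3 (0.0813) or mouse 4 (0.0810), with adjusted p from 0.000145 to 0.0813 over the alternatives. Adora1 shares exon bases with Mybph on the opposite strand, and since the libraries' strandedness is not given, its level is uncertain to that extent; Mybph itself had 0 to 1.21 FPKM.

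P2ry1, the ADP receptor gene at chr3:61002795-61008982 on the plus strand, differed most between the regions. It had 40.3, 44.1, 39.1 and 41.3 FPKM in positive spinal cord libraries and 20.02, 13.5, 15.7 and 13.02 FPKM in negative ones, against 8.76, 6.55, 6.54 and 5.62 FPKM in positive thalamus libraries and 5.30, 6.38, 3.93 and 2.51 FPKM in negative ones. Both spinal cord groups stood above both thalamus groups, and within the spinal cord the positive libraries stood above the negative ones. The gene rose by 1.37 ± 0.22 in positive spinal cord astrocytes (limma adjusted p = 0.000443). In the thalamus the groups overlapped, and the difference of 0.55 ± 0.22 was not called (adjusted p = 0.0780, 95% interval 0.12 to 0.97). Without negative mouse 2 it was called (0.0271, within 0.0206 to 0.264 over the alternatives). P2ry1 shares exon bases with the antisense gene Gm37035, so its level is uncertain without strand information.

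P2rx7, the ATP-gated channel gene at chr5:122643911-122691432 on the plus strand, ranged over 4.68 to 6.98 FPKM in positive spinal cord libraries and 1.53 to 3.57 FPKM in negative ones. In the thalamus it ranged over 7.55 to 9.98 FPKM in positive and 3.53 to 8.60 FPKM in negative libraries. It rose by 1.00 ± 0.25 in positive spinal cord astrocytes (limma adjusted p = 0.0107), with no overlap. The call was lost without mouse 1 (0.0945) or mouse 2 (0.0697), with adjusted p from 0.00442 to 0.115 over the alternatives. The thalamus difference of 0.43 ± 0.25 was not called (adjusted p = 0.216, 95% interval -0.052 to 0.91). An exon of P2rx7 overlaps the microRNA gene Mir8115, so its level is uncertain to that extent.

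Ednrb, the endothelin B receptor gene at chr14:103814625-103844402 on the minus strand, was the most abundant of the 9 genes in every group. By mean FPKM it was followed by Adra2a and P2ry1 in positive spinal cord astrocytes, by Adra2a and Adora2b in positive thalamus astrocytes, and by Adora1 and Adra2a in the negative astrocytes of both regions. Ednrb had 308, 327, 309 and 315 FPKM in positive spinal cord libraries and 179.6, 189, 165 and 192 FPKM in negative ones. In the thalamus it had 358, 254, 314 and 282 FPKM in positive and 313, 243, 281 and 310.5 FPKM in negative libraries. Only the negative spinal cord group stood apart, below the other 3 groups, which overlapped each other. The gene rose by 0.80 ± 0.13 in positive spinal cord astrocytes (limma adjusted p = 0.000614), while the thalamus difference was 0.071 ± 0.13 with a 95% interval from -0.19 to 0.33 (adjusted p = 0.731).

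**Figure D3:**
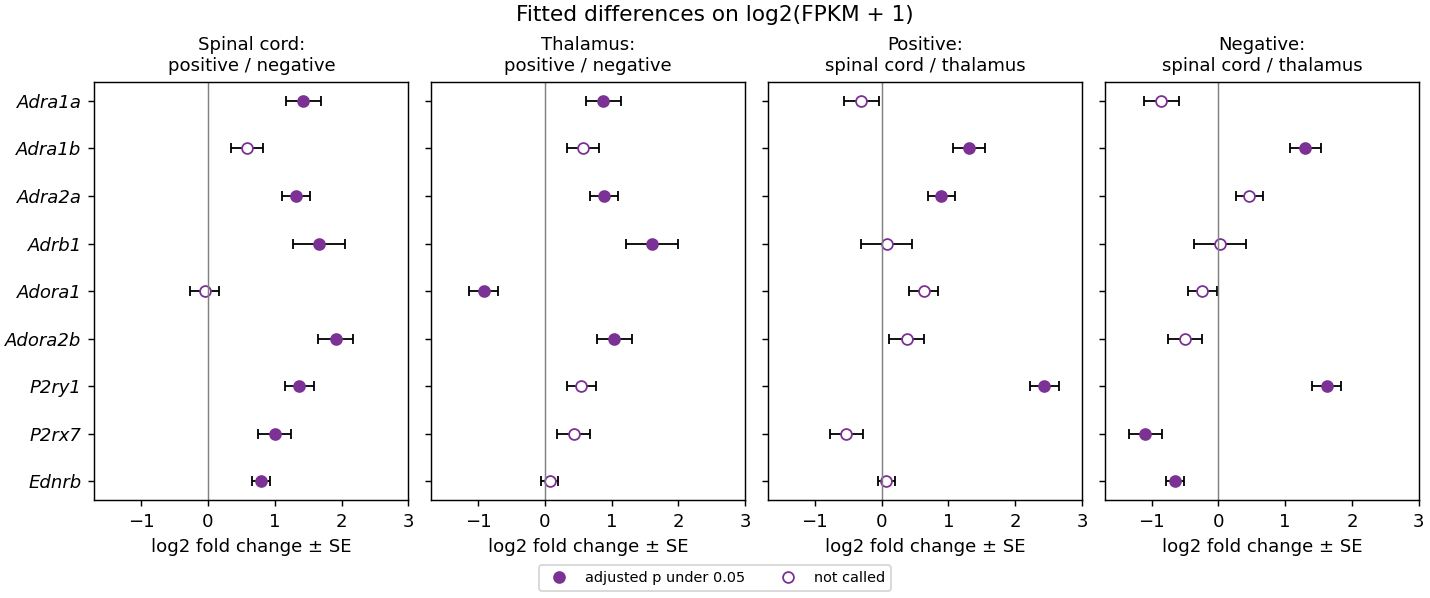
Log2 fold change (limma, on log2(FPKM + 1)) with its SE (bars) for each receptor gene, filled where called, for positive against negative astrocytes of the spinal cord and of the thalamus and for spinal cord against thalamus in each gate. In the spinal cord 7 genes were called higher and in the thalamus 4 were called higher and 1 lower, while P2ry1 and Adra1b stand to the right in both regional comparisons.

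Scaling each library by the geometric mean of its 10 astrocyte markers, an alternative chosen after the data were seen, put the median log2 fold change of all features at -0.18 in the spinal cord and at 0.35 in the thalamus. In the spinal cord 5 of the 9 genes were then called, all of them higher, against 3.55% of all features called higher and 15.5% lower: Adora2b by 1.56, Adrb1 by 1.31, Adra1a by 1.09, P2ry1 by 1.02 and Adra2a by 0.97. Ednrb, at 0.44 (limma adjusted p = 0.0634, within 0.000485 to 0.0820), and P2rx7, at 0.69 (adjusted p = 0.0919), were then no longer called. In the thalamus 8 genes were called, 7 higher and Adora1 lower at -0.58, against 21.2% of all features called higher and 8.26% lower. Adra1b was among the 7, at 0.86 (adjusted p = 0.0119). Gfap, 1 of the 10 markers, was itself called lower in positive libraries, at -1.53 ± 0.33 in the spinal cord and -3.44 ± 0.33 in the thalamus. Gja1, another of them, was called higher, at 1.11 ± 0.17 and 0.60 ± 0.17 in the same order. The scaling thus moves with single markers and not only with astrocyte content, and the part of Gfap in these calls was not tested. Every library was also rescaled to 1 common total, summed over the non-mitochondrial features above 0 in all 16 libraries. This put the median of all features in the thalamus at 0.37. It also gave 8 calls there, 7 of them higher, where 20% of all features were called higher and 8.4% lower. Under that rescaling Adra1b stood at 0.95, P2ry1 at 0.89 and P2rx7 at 0.76.

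The reporter difference was then compared between the regions within 1 model. By limma, 0 of the 9 genes were called, against 2.56% of all features. Adora1, Adora2b, P2ry1 and Ednrb had an unadjusted p under 0.05. How many of all features did so was not counted, so this is no result about the 9 genes. Estimates of the spinal cord difference minus the thalamus difference ran from 0.0095 for Adra1b to 0.87 for Adora2b, beside a median of 0.025 for all features. Those of Adra1a, Adra1b, Adra2a, Adrb1 and P2rx7 turned negative under the astrocyte marker scaling, where the median of all features was -0.53. The lowest adjusted p was that of Ednrb, 0.0560, for a difference of 0.73 ± 0.19 with a 95% interval from 0.36 to 1.09. It was called with no filter on low values (0.0491), and when positive mouse 1 (0.0450) or negative mouse 2 (0.0336) of the thalamus was left out, within 0.0336 to 0.970 over the alternatives. For Adora1 the difference was 0.87 ± 0.31 (adjusted p = 0.181), called only without negative thalamus mouse 2 (0.0124, within 0.0124 to 0.696). That Ednrb, P2ry1 and P2rx7 were called in 1 region and not in the other, or Adora1 in the thalamus only, is therefore no shown difference between regions.

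Between the regions, positive spinal cord astrocytes had more P2ry1, Adra1b and Adra2a than positive thalamus astrocytes. These 3 genes were called higher and 0 lower, against 4.22% and 1.88% of all features, or 6.1% in either direction. For P2ry1 the log2 fold change was 2.44 ± 0.22 (limma adjusted p = 5.77e-06), with means of 41.2 ± 2.12 FPKM in the spinal cord and 6.87 ± 1.33 FPKM in the thalamus (SD, n = 4 each). Adra1b was higher by 1.31 ± 0.23 (adjusted p = 0.00315) and Adra2a by 0.90 ± 0.21 (adjusted p = 0.0161). The P2ry1 call held in all 23 alternatives. The Adra2a call was lost in 9 of 23 (adjusted p from 0.00281 to 0.811), among them the fits without positive thalamus mouse 3 (0.0621), positive thalamus mouse 4 (0.0609) and positive spinal cord mouse 2 (0.0572), and the astrocyte marker scaling, where it stood at 0.053. The Adra1b call was lost in 4, without mouse 2 (0.0519) or mouse 4 (0.0582) and under both astrocyte marker scalings, where it stood at 0.59, within 0.00152 to 0.0845. Fitting only the positive libraries added Adora1, higher at 0.63 (adjusted p = 0.00331, within 0.00331 to 0.422), and P2rx7, lower at -0.53 (adjusted p = 0.0188, within 0.00412 to 0.533), where 15.5% of all features were called higher and 12.8% lower. The astrocyte marker scaling left only P2ry1 called higher, at 1.63, and gave 3 genes called lower, against 1.16% and 32.2% of all features, whose median then stood at -0.65. Adra1a, at -0.30 ± 0.26 (adjusted p = 0.633), was then at -1.12 with an adjusted p of 0.00818. P2rx7, at -0.53 ± 0.25 (adjusted p = 0.276), was then at -1.28 with an adjusted p of 0.00412. Ednrb, at 0.07 ± 0.13 (adjusted p = 0.876), turned to -0.79 with an adjusted p of 0.00286. Each of these 3 was the lowest adjusted p of the gene's alternatives. The astrocyte marker sum was itself higher in positive spinal cord than in positive thalamus libraries, as given above. Of the 10 markers, 6 were called higher and 1 lower there, with Gfap at 3.16 ± 0.33 and Slc1a3 at -1.56 ± 0.18.

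Negative spinal cord astrocytes had more P2ry1 and Adra1b and less P2rx7 and Ednrb than negative thalamus astrocytes. Of the 9 genes 2 were called higher and 2 lower, against 5.27% and 4.54% of all features, or 9.81% in either direction. The log2 fold changes were 1.62 ± 0.22 for P2ry1 (limma adjusted p = 0.000195), 1.30 ± 0.23 for Adra1b (adjusted p = 0.00219), -1.09 ± 0.25 for P2rx7 (adjusted p = 0.0103) and -0.65 ± 0.13 for Ednrb (adjusted p = 0.00498). When the negative libraries alone were fitted, only P2ry1 remained called, where 1.84% of all features were called higher and 1.15% lower, and the adjusted p was 0.0639 for Adra1b, 0.157 for P2rx7 and 0.116 for Ednrb, the highest of the alternatives for each. The P2rx7 call was also lost without mouse 1 or mouse 2, and the Ednrb call without mouse 3 or mouse 4. Adra1a stood at -0.86 ± 0.26 and just missed the threshold (adjusted p = 0.0503). It was called lower in 6 alternatives: without negative thalamus mouse 2 (0.00687), negative spinal cord mouse 2 (0.0384) or mouse 2 altogether (0.0145), with the astrocyte marker scaling (0.0354), with a filter at 5 FPKM (0.0457) and with a pseudocount of 0.5 (0.0496). Its adjusted p ran from 0.00687 to 0.310. The oligodendrocyte and ependymal sums given above also differed between the negative groups, and their part in these differences was not tested.

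Ratios of 2 receptor genes within a library do not depend on how the library is scaled. These 3 ratios were chosen after the data were seen. The ratio of Adora2b to Adora1 had a geometric mean of 0.986 in positive and 0.227 in negative spinal cord libraries, and of 1.19 in positive and 0.285 in negative thalamus libraries. Positive libraries of both regions thus held about as much transcript of the Gs-coupled as of the Gi-coupled adenosine receptor. Negative libraries held several times less of the Gs-coupled one, without overlap of the ratios. A ratio still depends on which cells a library holds, and the part of other cells in these ratios was not tested. Adora1, P2ry1 and P2rx7 also overlap other genes, as given above. The ratio of P2ry1 to P2rx7 was 7.34 in the spinal cord and 0.793 in the thalamus among positive libraries, and 6.73 and 0.709 among negative ones. The ratio of Adra1a to Adra1b was 1.57 in the spinal cord and 5.80 in the thalamus among positive libraries, and 0.806 and 5.40 among negative ones. The ratios of P2ry1 to P2rx7 and of Adra1a to Adra1b did not overlap between regions in either gate. Each of these 6 differences had a two-sided exact permutation p of 0.0286, the smallest that 4 against 4 can give, and 0.0571 after Benjamini-Hochberg adjustment over the 12 tests of this family, which does not pass 0.05.

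**Figure D4:**
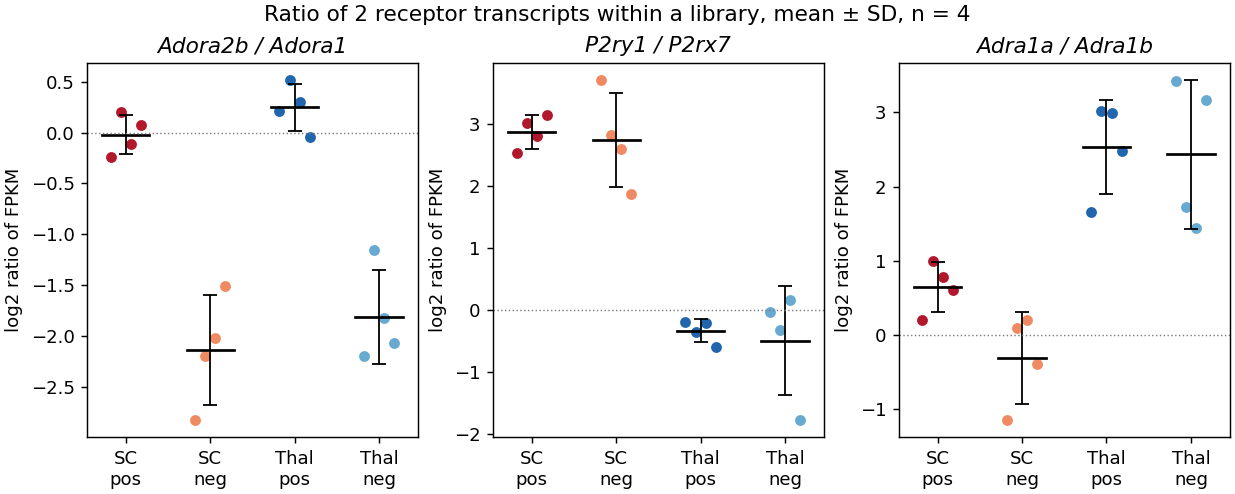
Log2 ratio of the FPKM values of 2 receptor genes within each library (points), with group means and SD (bars), n = 4 libraries per group of spinal cord (SC) or thalamus (Thal), for Adora2b to Adora1, P2ry1 to P2rx7 and Adra1a to Adra1b. The first separates positive from negative libraries in both regions, and the others separate spinal cord from thalamus in both gates.

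Other genes of the same pathways were examined from lists. All those called between regions, or for the difference of the reporter differences, are named here. Calls of the genes in these lists come from the main fit only and were not recomputed under the alternatives. Under the astrocyte marker scaling the median of all features was -0.53 for the difference and -0.65 between positive groups. Whether the calls of these genes hold under that scaling was not tested. Of the 5 other adrenergic and the 2 other adenosine receptor genes, 0 reached the level needed for testing, and the highest single value among them was 1.71 FPKM. Of 7 other P2Y genes 3 were tested, and P2ry12, a receptor gene known from microglia, was called lower in positive spinal cord libraries at -1.17 ± 0.28 (limma adjusted p = 0.00928). Of 6 other P2X genes 2 were tested, and P2rx6 was lower in positive libraries of the spinal cord (-0.91 ± 0.30) and the thalamus (-1.31 ± 0.30). Of all features, 10.5% and 13.6% were called lower there. P2ry12 and P2rx6 share exon bases with Med12l and Slc7a4 on the opposite strand and are uncertain.

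Among 12 genes for purine enzymes and transporters, 10 were tested. In positive spinal cord astrocytes 4 rose and 1 fell, while 1 rose and 0 fell in the thalamus. Of all features, 9.04% rose and 10.5% fell in the spinal cord, and 11.6% rose in the thalamus. The 1 in 10 that fell in the spinal cord and the 1 in 10 that rose in the thalamus were thus close to those shares. Entpd1 and Entpd2 code for enzymes that break down extracellular ATP. Entpd1 averaged 29.9 ± 4.63 FPKM in positive spinal cord libraries and 13.9 ± 5.61 FPKM in negative ones (1.13 ± 0.33, adjusted p = 0.0261). Entpd2 averaged 44.1 ± 5.36 and 20.1 ± 5.35 FPKM in the same groups (1.13 ± 0.29, adjusted p = 0.0123, SD, n = 4 each, limma), and shares exon bases with Npdc1. Panx1, a channel gene through which ATP can leave cells, fell to 0.567 ± 0.491 FPKM, against 9.38 ± 3.40 FPKM in negative ones (-2.71 ± 0.65, adjusted p = 0.00876). The nucleoside transporter gene Slc29a2 rose in the thalamus (0.94 ± 0.30). In the spinal cord Slc29a2 had 3.78 to 5.15 FPKM in positive and 0.517 to 3.86 FPKM in negative libraries, so the direction was not particular to the thalamus. Between regions, 2 genes of this list were higher in positive spinal cord than in positive thalamus astrocytes, against 4.22% of all features, Entpd2 (1.02 ± 0.29) and the nucleoside transporter gene Slc29a3 (0.92 ± 0.16). Of the genes examined for noradrenaline clearance, the monoamine oxidase gene Maob averaged 10.4 ± 0.685 FPKM in positive thalamus libraries and 25.5 ± 5.18 FPKM in negative ones (-1.19 ± 0.21, adjusted p = 0.000941). Maob was also lower in negative spinal cord than in negative thalamus libraries (-1.06 ± 0.21). Of 6 endothelin genes 4 were tested and 0 were called between gates. Edn1, which codes for an endothelin and overlaps an antisense gene, was higher in positive spinal cord than in positive thalamus libraries (1.41 ± 0.38), and Ece2, an endothelin-converting enzyme gene that overlaps another gene on its strand, was lower in negative spinal cord than in negative thalamus libraries (-1.11 ± 0.34).

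Downstream of the receptors, 10 of 11 G protein alpha subunit genes were tested. In positive astrocytes 4 fell in the spinal cord and 5 in the thalamus, against 10.5% and 13.6% of all features, and 0 rose in either. Gnai1, a Gi subunit gene, averaged 2.60 ± 0.597 FPKM in positive spinal cord libraries and 20.7 ± 5.47 FPKM in negative ones (-2.57 ± 0.22), and 2.54 ± 0.738 and 11.6 ± 1.84 FPKM in those of the thalamus (-1.85 ± 0.22). Gnao1 fell in the spinal cord (-1.54 ± 0.38) and Gnas, the Gs subunit gene, in the thalamus (-1.62 ± 0.20). Both overlap antisense genes, and neither fall was confined to 1 region. Gnao1 had 87.9 to 134 FPKM in positive and 212 to 786 FPKM in negative thalamus libraries. Gnas had 162 to 224 FPKM in positive and 335 to 423 FPKM in negative spinal cord libraries. Gnas was higher in positive spinal cord than in positive thalamus libraries (1.03 ± 0.20), and Gnai1 was higher in negative spinal cord than in negative thalamus libraries (0.75 ± 0.22). Of 7 phospholipase C and IP3 receptor genes 5 were tested. Plcb4, a phospholipase acting below Gq, rose in positive astrocytes of the spinal cord (0.86 ± 0.23) and the thalamus (1.03 ± 0.23). The IP3 receptor gene Itpr2 rose in the thalamus (0.58 ± 0.18), and its reporter difference was lower in the spinal cord than in the thalamus (-1.07 ± 0.25, limma adjusted p = 0.0347). Itpr2 was higher in negative spinal cord than in negative thalamus libraries (0.71 ± 0.18), and Itpr1, which overlaps antisense genes, was higher in positive spinal cord than in positive thalamus libraries (1.30 ± 0.23).

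Of 9 adenylyl cyclase genes 6 were tested, with 1 lower in positive spinal cord astrocytes and with 1 higher and 1 lower in the thalamus, counts close to the 10.5%, 11.6% and 13.6% of all features. Adcy3, which overlaps Cenpo, rose in the thalamus (1.51 ± 0.42). Adcy2, whose product makes cyclic AMP, was lower in the spinal cord than in the thalamus in positive libraries, with 3.26 ± 0.497 against 14.2 ± 1.38 FPKM (-1.83 ± 0.15, limma adjusted p = 3.38e-06), and in negative ones, with 3.86 ± 0.268 against 16.7 ± 2.95 FPKM (-1.85 ± 0.15, adjusted p = 2.55e-06). Adcy2 overlaps an antisense gene. All 12 desensitisation genes found in the file were tested, with 2 higher and 3 lower in positive spinal cord astrocytes and 1 higher and 3 lower in those of the thalamus. Of all features, 9.04% were higher and 10.5% lower in the spinal cord, and 11.6% higher and 13.6% lower in the thalamus. Adrbk2, a kinase gene whose product phosphorylates active receptors, rose in the spinal cord, with 19.2 ± 0.417 against 5.26 ± 2.36 FPKM (1.79 ± 0.24), and in the thalamus, with 28.1 ± 1.55 against 11.9 ± 0.869 FPKM (1.18 ± 0.24). The beta-arrestin gene Arrb1 rose in the spinal cord (0.88 ± 0.13), and its reporter difference was higher there than in the thalamus (0.76 ± 0.19, adjusted p = 0.0460). The regulator genes Rgs5 and Rgs2 fell in both regions, Rgs5 with log2 fold changes of -3.01 ± 0.29 in the spinal cord and -3.43 ± 0.29 in the thalamus, and Rgs2 with -2.04 ± 0.42 and -1.88 ± 0.42 in the same order. Rgs5 is also 1 of the mural markers, whose sum was lower in positive libraries. Adrbk2 was lower in negative spinal cord than in negative thalamus libraries (-1.13 ± 0.24).

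For each receptor gene the 3 named protein-coding genes with the most similar pattern over the 16 libraries were taken, by the root mean square difference of mean-centred log2(FPKM + 1) values, given in parentheses, among 11945 genes. They were Aifm3 (0.30), Tnik (0.33) and Mettl17 (0.34) for Adora2b, and Ocrl (0.26), Tnik (0.30) and Fam214a (0.30) for Adra1a, so that Tnik was shared. They were Flrt2 (0.22), Wfs1 (0.22) and Gpr37l1 (0.22) for Adra2a, and Ccdc152 (0.43), Mtch2 (0.45) and Ptchd4 (0.46) for Adrb1. For Adra1b they were Adamts5 (0.27), Gpr158 (0.29) and Il17ra (0.29), and for Adora1 Ddb1 (0.19), Aldh5a1 (0.20) and Fam101b (0.21). For P2ry1 they were Cd38 (0.25), Klri2 (0.37) and Slc22a4 (0.38), where Cd38 codes for an enzyme that consumes NAD, and for P2rx7 Hectd2 (0.23), Mina (0.28) and Syne1 (0.29). For Ednrb they were Ky (0.14), Rimbp2 (0.16) and Kcnd2 (0.18). These differences scale with a gene's own root mean square spread, which ran from 0.34 for Ednrb to 1.17 for P2ry1. The nearest gene's difference was 21.6% of that spread for P2ry1 with Cd38, 39.9% for Ednrb with Ky, and from 30.7% (Adra2a) to 45.1% (Adora1) for the other 7.

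The authors' deposited table of positive against negative libraries lists 444 features, beside 39171 in their FPKM table, all 444 with an adjusted p of at most 0.00976. It gives 1 log2 fold change for each feature and none for each region, unlike the comparisons above. Of the 9 genes, 2 appear in the authors' deposited table, Adora2b with a log2 fold change of 1.48 (standard error 0.228, adjusted p = 1.87e-09) and Adra2a with 1.11 (standard error 0.235, adjusted p = 2.63e-05).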

How the data were processed

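Sorted cells were lysed, their RNA was isolated with a Qiagen micro kit and libraries were made with NuGEN RNA-Seq V2, per the labels' protocols. TopHat2 2.0.11, Bowtie2 2.2.3, HTSeq 0.6.1p1, FastQC, Cufflinks, Cuffnorm, DESeq2 and the build GRCm38 are named in the submitters' processing notes, without roles. The authors deposited an FPKM table of 39171 features in the 16 libraries. A second table that the authors deposited compares positive with negative libraries. For its features the authors give group means in FPKM, a mean signal over libraries, log2 fold changes with standard errors, a test score, and raw and adjusted p-values.

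Since low FPKM values showed no steps of whole reads, depth is unknown and counting intervals are left out. The negative libraries of mouse 1 summed to 2233820 FPKM in the spinal cord and 2344480 FPKM in the thalamus, and the other 14 to 984986 to 1635370 FPKM. The libraries held 13260 to 14731 features at 1 FPKM or more. No pair of libraries was identical (0 pairs).

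The model was limma 3.58.1 (R 4.3.3) on log2(FPKM + 1), thus with a pseudocount of 1. It had a coefficient for each of the 4 groups, all 16 libraries and a prior with a trend. Features entered it if 4 or more libraries had 1 FPKM or more, which left 16340, and p-values were Benjamini-Hochberg adjusted over these. All 9 genes passed. Intervals are 95%. The script was tested on simulated data. For ratios a two-sided exact permutation test was run in scipy 1.17.1. The members, gene lists and tests were chosen with earlier results of these data known. Pathway genes were named by a rule: the 2 with the largest called change in each direction of a comparison, at 2 FPKM or more in the higher group. An item that this rule takes is not reported here. Genes that share exon bases with another gene in GENCODE vM21 are said to be uncertain or overlapping, because the libraries' strandedness was not stated.

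Libraries of the same mouse number came from 1 animal, as the labels state, so the numbers pair them. Deviations from group means correlated at 0.036 on average over 24 same-mouse pairs, from -0.013 to 0.092, and at -0.012 over 72 other pairs. Alternatives were other pseudocounts, filters, rescalings and priors, mouse as a block, only the groups compared, and each mouse or library left out.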

Additional observations from a re-analysis of the deposited data

Results flagged for a closer look

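Among 36 groups, 9 genes in 4 groups of 4 libraries, 1 held a library far from the others. Adra1b in negative thalamus astrocytes of mouse 3 was at 3.60 FPKM, against 1.26 to 1.60 FPKM in the other 3 mice, a gap of 0.856 of the group's range, past Dixon's 95% limit for 4 values. Chance alone gives about 1 such group in 20.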

How the results depend on the processing

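The 9 genes in 5 comparisons were recomputed 1098 times under other settings. Of these values 972 kept their direction and their side of the threshold, 57 changed sign, 41 lost a call and 30 gained one, of which 2 also changed sign. With mouse as a block, which pairs the libraries of an animal, no gene gained or lost a call: it left 7 genes called for the spinal cord, 5 for the thalamus, 0 for the difference of the reporter differences, 3 between positive and 4 between negative groups, as without the block. Depth is unknown, so the limits of the weakly expressed genes cannot be set by counting error.

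With 1 mouse or library left out, the number of the 9 genes called ran from 6 to 7 in the spinal cord, 2 to 6 in the thalamus, 0 to 2 for the difference, 1 to 3 between positive and 3 to 5 between negative groups. Features called ran from 1818 to 2958, 2174 to 4784, 66 to 615, 351 to 806 and 882 to 1752 in the same order. Differences near 0 changed sign: Adora1 in the spinal cord (-0.12 to 0.037), Ednrb in the thalamus (-0.014 to 0.15), Adra1b (-0.33 to 0.25) and Adrb1 (-0.30 to 0.38) for the difference, Adrb1 (-0.12 to 0.29) and Ednrb (-0.027 to 0.17) between positive groups and Adrb1 between negative groups (-0.30 to 0.37). So did the positive against negative log2 ratio of P2ry1 to P2rx7 in the spinal cord (-0.26 to 0.56) and the thalamus (-0.27 to 0.38), and that of Adra1a to Adra1b in the thalamus (-0.38 to 0.72). With 3 libraries in a group the smallest exact p was 0.1 or 0.0571, so a ratio could not be called.

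Rescaling to a common total of the non-mitochondrial features above 0 in every library gave 8 calls in the thalamus. It put Adora1 in the spinal cord at 0.056, and the difference at -0.23 for Adra1b and -0.13 for Adrb1. The positive groups then stood at -0.13 for Adrb1 and -0.15 for Ednrb. The share of all calls that were higher was then 54.5% in the spinal cord, 70.4% in the thalamus, 30.3% for the difference and 45.8% between positive groups, beside 46.2%, 45.9%, 44.02% and 69.2% as deposited. Astrocyte marker scaling, chosen after the data were seen, gave 4 spinal cord calls when joined with the mouse block, and 8 thalamus calls without it. Under it the share of higher calls was 18.7% in the spinal cord, 72.0% in the thalamus, 10.1% for the difference, 3.48% between positive and 40.8% between negative groups, where it was 53.7% before. Features called for the difference numbered 1152, or 885 with the block, and between positive groups 5520, or 5343 with the block. With or without the block, the difference stood at -0.13 for Adra1a, -0.60 for Adra1b, -0.27 for Adra2a, -0.60 for Adrb1 and -0.061 for P2rx7. Positive groups stood at -0.72 for Adrb1, -0.21 for Adora1, -0.46 for Adora2b and -0.79 for Ednrb, and negative groups at -0.11 for Adrb1.

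With only the groups compared in the fit, 5 genes and 4111 features were called between positive groups, of which 54.7% were higher, and 1 gene and 413 features between negative groups. For the difference, 1 gene was called with no filter and 271 features with a filter at 5 FPKM, where fewer features were tested. The difference for Adra1b was -0.16 with a pseudocount of 0.1, -0.063 with 0.5 and -0.00073 with median-of-ratios rescaling, and Adrb1 between negative groups was -0.018 with a pseudocount of 0.1. The cause of these changes was not tested.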
